A study of Mus musculus with 24 samples.

Results

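The genomic intervals that all 4 deposited peak lists of the linker histone H1.0 had in common were examined in mouse embryonic fibroblasts before and at day 1 of induced cardiac reprogramming. The lists were intersected base by base on chromosomes 1 to 19 and X, and an interval counted as shared when it was 300 bp or longer. Of 6027 intervals in the intersection, 4439 (73.7%) met that length, and they covered 3.05 Mb, or 0.116% of the 2632 Mb spanned by these chromosomes. All 16 lists used together held 1662467 peaks on the same chromosomes. The intervals were chosen by the H1.0 peak calls of these same lists, so their H1.0 values are given as a description without a test.

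The cells were the iMGT-Myh6-eGFP-MEF line, a mouse embryonic fibroblast line in which doxycycline induces Mef2c, Gata4 and Tbx5 and in which eGFP reports on the cardiac gene Myh6. The 3 day 1 groups (siJunb, siH1f0 and siControl) received the named siRNA at plating, at 300000 cells per well, and 1 µg/mL doxycycline on the following day, and they were collected at day 1 after induction, whereas ground-state cells were not reprogrammed. Cells were frozen before the assay, and about 250000 cells went into each CUT&RUN reaction, an assay that releases the DNA next to an antibody-bound protein by a nuclease fused to protein A. MEF2C was mapped at day 1 under siJunb (n = 3), siH1f0 (n = 3) and siControl (n = 2). H1.0 and the heterochromatin mark H3K9me3 were each mapped under siControl at day 1 (n = 2) and in the ground state (n = 2). H1.0 was not analysed under either knockdown here, the efficiency of the knockdowns was not checked, and the 8 IgG samples were not analysed here. The values concern DNA from 1 cell line with no RNA measured, so the fibroblast identity given in the labels was not checked against marker genes. A peak list averages over the cells of a sample, and fewer cells with a bound site and less binding per cell cannot be told apart.

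Linker histones bind the nucleosome where DNA enters and leaves it and help to fold the chromatin fibre. H1.0, the product of H1f0, is the replacement-type linker histone that accumulates in cells that divide slowly or differentiate. H3K9me3 marks constitutive heterochromatin and silences repeats and gene clusters such as those of the zinc finger and olfactory receptor families. MEF2C is a MADS-box transcription factor of muscle genes that is supplied here together with GATA4 and TBX5, and JUNB, the target of siJunb, is a member of the AP-1 family.

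Shared H1.0 intervals overlapped 176 promoter windows of RefSeq (GRCm38.p6, the assembly of mm10), each of which runs from 250 bases before to 50 bases after a gene start. The promoters shown are those of the best ranked of these intervals (Gm5165 and Trpm8), of intervals with MEF2C in all 8 libraries (Cep57l1 and Tacc3) and of an interval with H3K9me3 in all 4 libraries (Gm45966). They lie at chr17:17234653-17234952 on the plus strand (Gm5165), chr1:88306485-88306784 on the plus strand (Trpm8), chr10:41809819-41810118 on the minus strand (Cep57l1), chr5:33657878-33658177 on the plus strand (Tacc3) and chr13:66588919-66589218 on the plus strand (Gm45966). Capitals mark the searched strings, which are the CCAAT box, the GC box with its letters GGGCGG, and the TATA string TATAAA, each also in its reverse complement.
Gm5165: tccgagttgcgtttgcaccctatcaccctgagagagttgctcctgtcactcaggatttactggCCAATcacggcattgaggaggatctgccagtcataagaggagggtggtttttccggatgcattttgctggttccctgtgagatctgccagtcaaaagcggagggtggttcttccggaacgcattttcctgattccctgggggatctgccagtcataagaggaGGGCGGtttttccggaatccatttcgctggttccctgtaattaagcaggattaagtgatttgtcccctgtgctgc
Trpm8: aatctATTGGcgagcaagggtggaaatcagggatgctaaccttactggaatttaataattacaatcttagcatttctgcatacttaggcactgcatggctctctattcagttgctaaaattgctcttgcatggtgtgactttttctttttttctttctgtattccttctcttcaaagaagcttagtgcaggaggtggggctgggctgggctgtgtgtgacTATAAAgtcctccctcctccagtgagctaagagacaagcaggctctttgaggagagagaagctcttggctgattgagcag
Cep57l1: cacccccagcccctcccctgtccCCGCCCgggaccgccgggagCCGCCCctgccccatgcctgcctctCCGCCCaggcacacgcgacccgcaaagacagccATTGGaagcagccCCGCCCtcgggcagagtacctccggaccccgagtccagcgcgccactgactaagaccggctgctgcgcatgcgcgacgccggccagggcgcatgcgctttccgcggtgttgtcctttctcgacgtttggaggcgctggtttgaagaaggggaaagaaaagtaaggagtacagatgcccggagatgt
Tacc3: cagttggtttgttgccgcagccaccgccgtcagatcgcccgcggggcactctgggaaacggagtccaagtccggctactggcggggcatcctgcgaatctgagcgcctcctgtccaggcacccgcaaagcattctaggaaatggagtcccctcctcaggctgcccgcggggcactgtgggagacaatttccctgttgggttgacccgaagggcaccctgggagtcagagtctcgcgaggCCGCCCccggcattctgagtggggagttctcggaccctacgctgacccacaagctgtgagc
Gm45966: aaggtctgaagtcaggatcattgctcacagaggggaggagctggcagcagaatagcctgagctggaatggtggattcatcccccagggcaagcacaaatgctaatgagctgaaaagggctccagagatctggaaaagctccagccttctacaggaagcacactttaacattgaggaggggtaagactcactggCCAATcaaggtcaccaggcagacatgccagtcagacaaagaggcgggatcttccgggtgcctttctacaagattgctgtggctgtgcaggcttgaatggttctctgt
Across the 176 promoter windows under a shared interval, CCAAT was found on either strand in 57.4%, against 37.6% of all 32619 windows. The GC box was found in 45.5% of them, against 35.9% of all windows. The AP-1 string TGANTCA was found in 3.98%, against 7.85% of all windows, and the MEF2 element in 1.70%, against 3.11%. TATAAA was found in 6.25%, against 13.7% of all windows, and TGACGTCA in 0.568%, against 1.80%. The median GC content was 56.5% in the windows under a shared interval and 53% in all windows. A stretch of 50 bases that also occurs elsewhere in the promoter table was present in 13.1% of the windows under a shared interval and in 7.51% of all windows. The MEF2 element can contain TATAAA and no other pair of these strings contains one another. A match is not evidence of binding, and these shares carry no test because neighbouring promoters can share an interval.

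The 4 H1.0 lists differed widely in length, which set how much each could contribute. Day 1 replicates 1 and 2 held 722039 and 32912 peaks, and ground-state replicates 1 and 2 held 85700 and 412687 peaks. Shared intervals made up 0.335% and 10.7% of the bases of the day 1 lists and 3.28% and 0.275% of those of the ground-state lists. The shortest list, day 1 replicate 2, was therefore the one that most limited the intersection, and its peaks without a shared interval (28517 of 32912) serve below as the set for comparison. The labels give 30 M reads for the samples, and the number aligned is not given in the sources used here. Lists whose names begin with M were the shorter ones at both stages, so the day 1 and the ground-state pair each joined a short and a long list.

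The peaks that held the shared intervals were ranked within each list by their maximum signal, the highest coverage within the peak as the authors deposited it. The median percentile was 90.8 and 54.7 in day 1 replicates 1 and 2, and 69.5 and 87.8 in ground-state replicates 1 and 2. The median maximum signal of these peaks was 9 and 5 at day 1 and 7 and 12 in the ground state. Over all peaks of the same lists it was 6 and 5 at day 1 and 6 and 8 in the ground state. These are small whole numbers, so many peaks share a percentile. The percentile and maximum signal of an interval, here and below, belong to the whole peak that held it. The highest point of that peak can lie outside the interval. Holding peaks had median widths of 2547 and 869 bp at day 1 and 1164 and 4379 bp in the ground state. Over all peaks of these lists the medians were 969 and 824 bp at day 1 and 1001 and 1881 bp in the ground state. Of the 4439, 390 intervals (8.79%) lay in a peak above the 90th percentile in all 4 lists, 43 lay above the 99th in all 4, and 38 lay below the 50th in all 4. Sharing by all lists was thus not the same as strong signal in all of them. The 98 intervals of 300 to 319 bp had a median mean percentile of 64.4, and the 99 intervals of 280 to 299 bp that were left out had one of 66.5.

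**Figure D1:**
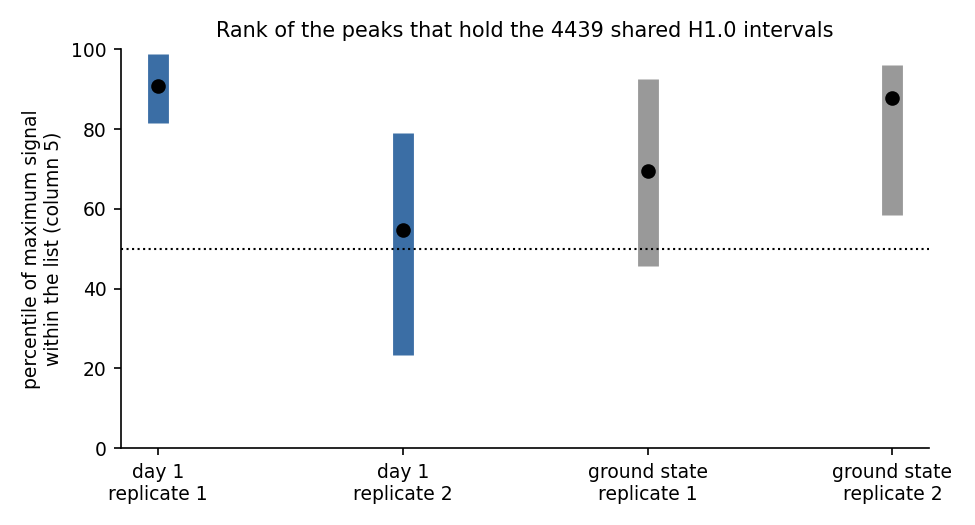
Percentile of the maximum signal of the peaks that hold the 4439 shared H1.0 intervals, within each H1.0 list (points, medians; bars, lower to upper quartile; dotted line, the middle of a list). The median was 90.8 and 54.7 in the 2 day 1 lists and 69.5 and 87.8 in the 2 ground-state lists.

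The best ranked interval was chr19:61263636-61264531, which lay 4.5 kb from the pseudogene Gm18999. Its peaks reached a maximum signal of 140 and 97 at day 1, and of 205 and 125 in the ground state, where the medians over all peaks of the same lists were 6 and 5 at day 1 and 6 and 8 in the ground state. MEF2C lay on it in 2 of 3 siJunb, 2 of 3 siH1f0 and 1 of 2 siControl libraries, and H3K9me3 in 1 of 2 libraries at each stage. Of the 10 best ranked intervals, 8 lay within an annotated gene. These genes were Atrnl1, Ankar, Dnah14 (an axonemal dynein heavy chain), Akap9 (a scaffold that anchors protein kinase A at the centrosome and Golgi), Slc8a3 (a sodium-calcium exchanger), Drosha (the nuclease that starts microRNA processing), Dclk2 (a doublecortin-like kinase) and the long noncoding RNA Gm52332. The interval in Drosha (chr15:12872590-12873389) lay in peaks that reached 44 and 35 at day 1 and 72 and 27 in the ground state. Neither MEF2C nor H3K9me3 lay on this interval in any library. The interval in Akap9 (chr5:4052276-4054436) lay in peaks that reached 39 and 28 at day 1 and 46 and 37 in the ground state. MEF2C lay on this interval in all 3 siJunb, all 3 siH1f0 and 1 of 2 siControl libraries. The interval in Slc8a3 (chr12:81278636-81278945) was held by MEF2C in all 3 siJunb libraries, in no siH1f0 library and in no siControl library. MEF2C patterns thus varied among the best ranked intervals.

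The shared intervals were short, with a median width of 629 bp and quartiles of 480 and 798 bp, and 38 were 2000 bp or longer. The longest ran for 11593 bp over the start of Trpm8, which encodes the cold- and menthol-gated cation channel of sensory neurons (chr1:88299427-88311019). Its maximum signal was 22 and 14 at day 1 and 21 and 20 in the ground state, it contained the whole promoter window printed above, and MEF2C lay on it in 1 siH1f0 library only. The next longest in the genome, of 5690 bp, lay 4.08 kb from Atf1, which encodes a CREB-family transcription factor, and H3K9me3 lay on it in all 4 libraries. Of the 10 longest intervals, 6 lay in the same 1 Mb window of chromosome 15 as Atf1, in or beside Atf1, Slc11a2 (an iron transporter) and the overlapping genes Higd1c and Methig1.

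Shared intervals were gathered on some chromosomes and in few windows. Chromosome 9 held 3.76 per Mb, chromosome 11 held 3.17 and chromosome 1 held 3.02, whereas chromosome X held 0.380 and chromosomes 18 and 8 held 0.430 and 0.472, against 1.69 over all chromosomes. The 2 short H1.0 lists had a like spread, with 20.1 and 47.3 peaks per Mb of chromosome 9 and 3.60 and 8.74 per Mb of chromosome X (day 1 replicate 2 and ground-state replicate 1). In the 2 long lists the same chromosomes differed less, at 323 and 178 peaks per Mb of chromosome 9 and 178 and 138 per Mb of chromosome X (day 1 replicate 1 and ground-state replicate 2). Of 2641 windows of 1 Mb, 1255 held a shared interval, and the 87 windows with 10 or more (3.29% of windows) held 1762 intervals, or 39.7% of all. These dense windows contained 4.06% and 16.6% of the peaks of day 1 replicates 1 and 2, and 14.4% and 3.62% of the peaks of ground-state replicates 1 and 2. The dense windows were thus rich in peaks of the 2 short lists, and the part of those lists in the clustering was not tested.

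**Figure D2:**
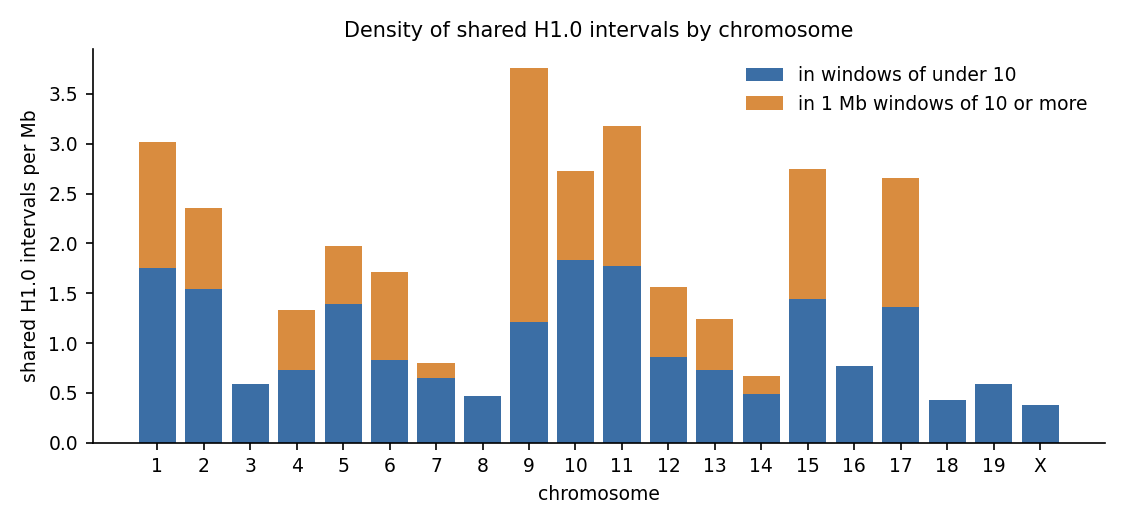
Shared H1.0 intervals per Mb of each chromosome, split into those in 1 Mb windows with 10 or more intervals and those elsewhere. Chromosome 9 stands highest with 3.76 per Mb and chromosome X lowest with 0.380 per Mb, and chromosomes 3, 8, 16, 18, 19 and X have no window of 10 or more.

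The dense windows ranged from H3K9me3-marked (at least 50% of intervals) to unmarked (under 10%), with others between. In 11 windows at least 50% of the shared intervals lay under an H3K9me3 peak of any library, and these windows held 315 intervals, of which 305 (96.8%) were so marked. In 59 windows under 10% were marked, with 28 of 1112 intervals (2.52%), and 38 of these windows had no marked interval at all. The other 17 windows lay between, with 65 of 335 intervals marked (19.4%). H3K9me3 in all 4 libraries was less common. It lay on 141 of the 315 intervals in the marked windows, on 11 of the 335 between and on 4 of the 1112 in the unmarked ones. Pseudogenes made up 46.6% of the annotated genes in the 11 marked windows and 16.7% in the 59 unmarked ones, against 21.2% of all genes in the table. MEF2C of any library lay on 21.0% of the intervals in the marked windows and on 32.6% of those in the unmarked ones. The marked windows include 1 on chromosome 12, from 115 to 116 Mb, with MEF2C on 0 of 70 intervals. Over all shared intervals the order was the other way. MEF2C of any library lay on 45.1% of those with H3K9me3 in all 4 libraries. It lay on 38.7% of those with H3K9me3 in 1 to 3 libraries and on 36.1% of those with none. These shares were not tested.

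**Figure D3:**
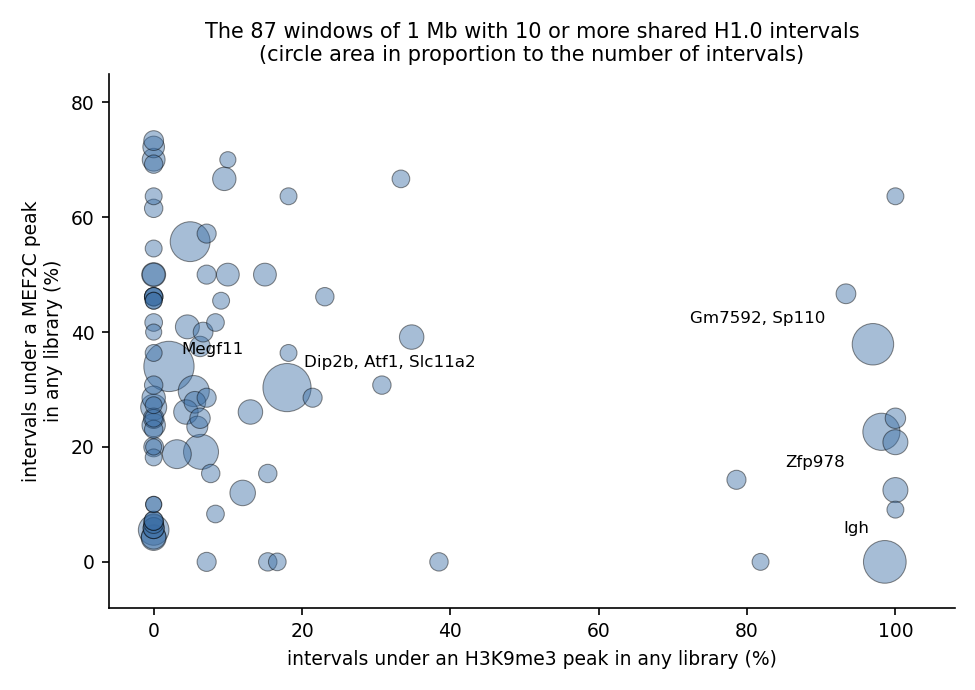
The 87 windows of 1 Mb with 10 or more shared H1.0 intervals, by the share of their intervals under an H3K9me3 peak (horizontal axis) and under a MEF2C peak (vertical axis) of any library; circle area is in proportion to the number of intervals. The 11 windows at the right, with Igh, Zfp978 and Gm7592 among their genes, hold 315 intervals, and the 59 with under 10% marked hold 1112.

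The marked windows lay over repeated gene families. The window at 115 to 116 Mb of chromosome 12, within the immunoglobulin heavy chain locus Igh, held 70 shared intervals and 54 annotated V segments. H3K9me3 of any library lay on 98.6% of these intervals, and H3K9me3 in all 4 libraries on 20 of the 70. MEF2C lay on 0 of 70, which allows a share of up to 4.29% (3 counts of the total, counting error only). The 8 MEF2C lists together had 1 peak in this whole window, inside or outside shared intervals. Among the 70 shared intervals was chr12:115602852-115605607 over Ighv1-67, with H3K9me3 in all 4 libraries. Its maximum H1.0 signal was 28 and 16 at day 1 and 28 and 21 in the ground state. The window at 85 to 86 Mb of chromosome 1 held 66 intervals, 22 of them over Gm7592 and 4 over Sp110 (a nuclear body protein). H3K9me3 of any library lay on 97.0% of the 66, H3K9me3 in all 4 libraries on 39, and MEF2C on 37.9%. The window at 147 to 148 Mb of chromosome 4 held 53 intervals, 37 of them over the zinc finger gene Zfp978. H3K9me3 of any library lay on 98.1% of the 53, H3K9me3 in all 4 libraries on 10, and MEF2C on 22.6%. The 2 neighbouring windows from 65 to 67 Mb of chromosome 13 held 48 intervals, all of them under H3K9me3 of at least 1 library. In all 4 libraries it lay on 17 of 24 in the first and on 20 of 24 in the second.

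The longest run of neighbouring dense windows was of the unmarked kind throughout. It took in 7 windows from 61 to 68 Mb of chromosome 9 with 283 shared intervals, 6.38% of all, of which 3.53% lay under H3K9me3 and 31.8% under MEF2C of any library. Its window at 64 to 65 Mb held 97 intervals, the highest number of the 2641 windows, and 53 of them lay over the body of Megf11, which encodes a cell-surface protein that helps to space neurons in the mouse retina. In that window day 1 replicates 1 and 2 had 287 and 169 peaks and ground-state replicates 1 and 2 had 290 and 204, where the median window had 302 and 8 at day 1 and 20 and 170 in the ground state. The adjacent window held 61 intervals, 15 of them over Map2k5, the kinase that activates ERK5, with others over Smad3 and Smad6, a transducer and an inhibitor of TGF-beta family signalling. MEF2C of any library lay on 55.7% of these 61 intervals. The window at 100 to 101 Mb of chromosome 15 held 89 intervals within chr15:100087868-100418488, with 13 over Dip2b, 12 each over Atf1 and Slc11a2 and 10 over Mettl7a1, and H3K9me3 of any library on 16 of the 89. On chromosome 6, 4 windows from 145 to 149 Mb held 107 intervals, and 21 intervals lay over Itpr2, an inositol trisphosphate receptor that releases calcium from the endoplasmic reticulum.

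Most shared intervals lay within genes and more than 1 kb from a start site, as did most peaks of the shortest H1.0 list. Of the 4439, 2880 (64.9%) overlapped an annotated gene, where 62.1 percent of all peaks of the shortest H1.0 list did. A gene end, either the start or the end of a gene since the table gives no strand, lay within 5 kb of 1649 intervals (37.1%, 95% Wilson interval 35.7 to 38.6), against 33.5 percent of all peaks of the shortest list and 32.9% of those without a shared interval. The share was 36.6% for the 1588 intersected intervals under 300 bp. A RefSeq promoter window was overlapped by 147 intervals (3.31%), against 2.74 percent of all peaks of the shortest list, and a start site lay within 1 kb of 287 (6.47%), against 5.3 percent. Outside the dense windows 34.0% of intervals lay within 5 kb of a gene end, and inside them 41.9% did. These shares were not tested, since intervals are not replicates, and Wilson intervals here cover counting error only.

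Genes with a shared interval in them or within 5 kb numbered 1793 of 21631 protein-coding genes, which is 8.29 percent, and 2790 of all 49554 annotated genes, which is 5.63 percent. The share climbed with gene length, at 3.10% of protein-coding genes under 10 kb, 7.01% at 10 to 50 kb, 13.7% at 50 to 100 kb, 23.4% at 100 to 500 kb and 29.5% above 500 kb. Lists of genes are therefore read beside their length. Of 26 sarcomere and cardiac stress genes, 5 had a shared interval (19.2%), namely Actc1, Des, Mybpc3, Tnni1 and Tpm1, and the median length of the list was 16.8 kb. The interval beside Actc1, which encodes cardiac alpha-actin, lay 1.24 kb from the gene at chr2:114054114-114054703, over the promoter window of the long noncoding RNA C130080G10Rik, and MEF2C lay on it in 7 of 8 libraries. That of Des (the intermediate filament desmin), both of Mybpc3 (cardiac myosin-binding protein C) and that of Tnni1 (slow skeletal troponin I) had MEF2C in 0 libraries, and that of Tpm1 (tropomyosin) had it in 3.

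Of 27 fibroblast and extracellular matrix genes, 5 had a shared interval (18.5%), namely Col5a2, Sparc, Thy1, Ddr2 and Col5a1. The median length was 129 kb for these 5 genes and 27.9 kb for the whole list. The interval in Col5a2, which encodes a type V collagen chain (chr1:45502152-45503511), was held by MEF2C in all 8 libraries, that in Sparc in 4, and that in Col5a1 in none. The interval in the collagen receptor gene Ddr2 (chr1:170058942-170059765) had H3K9me3 in both day 1 libraries and in neither ground-state library. Mesenchymal transcription factors had 3 of 18 genes (Twist2, Zeb1 and Prrx2), cell cycle and p53 genes 3 of 18 (Rb1, Cdk4 and Mdm2), and housekeeping genes 2 of 15 (Eef2 and Ppia). The median length was 41.4 kb for the mesenchymal factors, 9.82 kb for the cell cycle genes and 5.40 kb for the housekeeping genes. The AP-1 family had 1 of 13 (median length of the list 10.5 kb), which was Fosl2. It had 2 intervals in the gene, with MEF2C in 6 libraries on the better ranked and in 3 on the other. The cardiac transcription factors had 1 of 18 (median 22.4 kb), Zfpm2, the FOG2 cofactor of GATA4, with MEF2C in 6. Master regulators of other lineages had 0 of 18, with a median length of 6.42 kb. Of all protein-coding genes under 10 kb, 3.10% had a shared interval, so 0 of 18 says little. H1f0, Junb, Mef2c, Gata4, Tbx5 and Myh6 each had no shared interval in the gene or within 5 kb.

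Among gene families, 40 of 400 Zfp genes (10%) had a shared interval, with a median length of 27.2 kb for the 40 and 18.01 kb for all 400. Of single genes, Zfp978 had 37 over its body, with 5 over Zfp981, 4 over Zfp979 and 3 over Zfp984, all on chromosome 4, and 7 over Zfp993, whose annotation overlaps others there. Olfactory receptor genes had 24 of 1110 (2.16%), with a median length of 0.95 kb, and microRNA genes 27 of 1228 (2.20%), with one of 0.080 kb. Hox genes had 1 of 39, beside Hoxb1. Core histone genes had 3 of 57, which are H2ac23, H2bc23 and H4c17 around 1 interval at chr13:21809413-21809915 with MEF2C in 6 libraries. Linker histone genes had 1 of 10, H1f7, a testis-specific form, and clustered protocadherins 2 of 57, around 1 interval. The median length was 3.74 kb for the Hox genes and 0.487 kb for the core histone genes. It was 0.788 kb for the linker histone genes and 90.3 kb for the protocadherins. Genes whose symbols start with Rps or Rpl had 2 of 101, and both were S6 kinases (Rps6ka3 and Rps6kc1). Families with near-identical copies, such as the Zfp, V segment and Gm genes above, are uncertain, because how reads with several matches were placed is not given in the sources used here.

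H3K9me3 lay on 1046 shared intervals (23.6%) in at least 1 of 4 libraries, against 17 percent of all peaks of the shortest H1.0 list, and on 315 (7.10%) in all 4, against 4.05 percent. The share in all libraries was 2.99% without H1.0 day 1 replicate 2, 3.45% without H1.0 ground-state replicate 1, 11.6% without H3K9me3 ground-state replicate 1, and 15.7% with H1.0 peaks above the median maximum signal of their list. By library, it lay on 14.7% and 17.7% of shared intervals at day 1 and on 9.48% and 20.5% in the ground state, against 8.84 and 13 percent (day 1) and 5.41 and 14.2 percent (ground state) of all peaks of the shortest list. The other peaks of the shortest list were held at 7.91% and 12.3% at day 1 and at 4.75% and 13.2% in the ground state. The share was higher on shared intervals in 4 of 4 libraries, by 6.08 ± 1.20 percentage points (SD, n = 4), with exact p = 0.125, two-sided, by changing the sign of the difference in each library, which is the smallest p that 4 libraries allow. This comparison was added after the values were seen. H3K9me3 peaks on shared intervals also ranked higher in their own lists. Their median percentiles were 72.9 and 72.7 at day 1 and 64.0 and 76.4 in the ground state. H3K9me3 peaks elsewhere had 49.0 and 48.6 at day 1 and 53.2 and 48.4 in the ground state. MEF2C peaks on shared intervals ranked higher in some libraries and not in others. Their median percentiles were 40.8, 65.2 and 54.9 under siJunb, 59.2, 60.9 and 43.4 under siH1f0, and 52.2 and 55.2 under siControl. MEF2C peaks elsewhere had 55.2, 48.9 and 54.9 under siJunb, 51.4, 50.2 and 55.0 under siH1f0, and 52.2 and 49.6 under siControl. The median H1.0 percentile was 87.4 for intervals with H3K9me3 in all 4 libraries and 69.4 for those with none. A promoter window was overlapped by 1.90% of the intervals with H3K9me3 in all 4 libraries and by 3.98% of those with none.

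The best ranked interval with H3K9me3 in all 4 libraries was chr18:73447734-73448228, which lay 56.6 kb from the nearest annotated gene and had maximum signals of 39 and 15 at day 1 and 28 and 38 in the ground state. The interval chr6:136402666-136403362 in E330021D16Rik, also with H3K9me3 in all 4 libraries, had signals of 25 and 12 at day 1 and 23 and 27 in the ground state, and MEF2C lay on it in all 3 siJunb libraries and in no siH1f0 or siControl library. Of the 315 intervals, 156 lay in 21 of the dense windows. Day 1 and the ground state did not differ in the share held beyond the spread between libraries. It averaged 16.2% ± 2.09 at day 1 and 15.0% ± 7.81 in the ground state (SD, n = 2 each), a difference of 1.21 percentage points (exact permutation p = 1, adjusted p = 1 over 4 comparisons, two-sided), and 0.333 was the smallest p possible. The difference was 5.25 points between the lists whose names begin with M and -2.84 points between the others, so its sign depended on the pair. H3K9me3 in both day 1 and no ground-state libraries was found on 11 intervals (0.248%, against 0.261 percent of all peaks of the shortest list), which included 2 in Fig4 and 1 in Ddr2, and the opposite pattern on 7 (0.158%, against 0.0912 percent), which included 1 each in Prkcb and Syt13.

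MEF2C lay on 1650 shared intervals (37.2%) in at least 1 of 8 libraries, against 24.8 percent of all peaks of the shortest H1.0 list, and on 85 (1.91%) in all 8, against 1.28 percent. The share in all 8 was 1.25% without H1.0 day 1 replicate 2. On the other 2789 (62.8%, against 75.2 percent) it lay in no library, and it lay on 199 (4.48%, against 3.13 percent) in both siControl libraries. Neither MEF2C nor H3K9me3 was found in any library on 2168 intervals (48.8%), against 62.9 percent. In each of the 8 libraries the share was higher on shared intervals than on the other peaks of the shortest list, at 12.1% ± 4.65 against 7.12% ± 2.89 (SD, n = 8 libraries). The difference was 4.95 ± 2.28 percentage points (SD, n = 8), ranging over 1.85 to 8.85 points (exact p = 0.00781, two-sided, by changing signs within libraries, the smallest p that 8 libraries allow). This comparison was also added after the values were seen, and neither p is adjusted. The shared intervals were the narrower set, with a median of 629 bp against 819 bp for the other peaks. The libraries come from 1 cell line and were read on the same intervals, so both p-values measure only how far the libraries agreed. The part of signal common to all antibodies was not tested, since IgG samples were not analysed here. Within the 3 libraries of lists beginning with M the difference was 3.91 points (exact p = 0.25) and within the other 5 it was 5.57 points (exact p = 0.0625), the smallest p possible in either case.

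Intervals held by several MEF2C libraries lay more often at promoters than those held by none, with the highest share at 6 libraries. A promoter window was overlapped by 1.36% of the intervals with MEF2C in no library, 2.22% with 1, 5.49% with 3, 16.05% with 5, 26.6% with 6, 17.2% with 7 and 21.2% with all 8. MEF2C lay on 109 of the 147 promoter intervals in at least 1 library (74.1%), against 394 of the 732 other peaks of the shortest list at a promoter window (53.8%), and on 35.9% of shared intervals and 21.9% of other peaks away from one. H3K9me3 lay on 12 of the 147 (8.16%), near the 54 of 732 (7.38%) of other peaks at a promoter window. Of the 85 intervals with MEF2C in all 8 libraries, 80 (94.1%) had H3K9me3 in none and 0 had it in all 4, which allows a share of up to 3.53%. Over all 4439 intervals these shares were 76.4% and 7.10%, and among the 328 other peaks of the shortest list with MEF2C in all 8 libraries they were 93.9% and 0.610%.

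**Figure D4:**
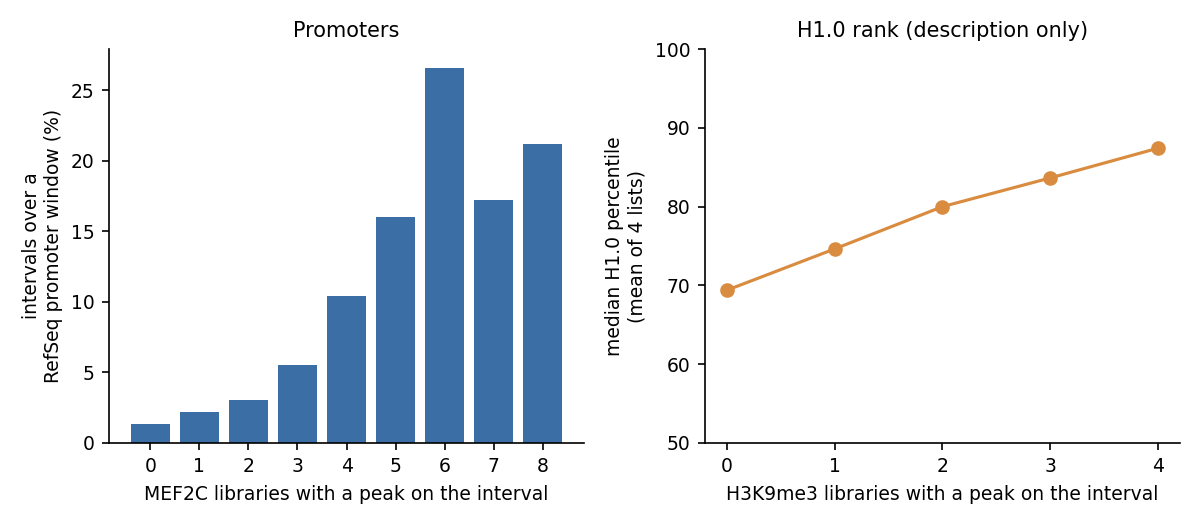
Left, share of shared H1.0 intervals over a RefSeq promoter window, by the number of MEF2C libraries with a peak on the interval; right, median of the mean H1.0 percentile by the number of H3K9me3 libraries with a peak on it, an axis that starts at 50. The promoter share was 1.36% at 0 MEF2C libraries and 21.2% at 8, and the H1.0 percentile was 69.4 at 0 H3K9me3 libraries and 87.4 at 4.

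The best ranked interval with MEF2C in all 8 libraries was chr15:67176262-67176991 in St3gal1, a sialyltransferase, with maximum H1.0 signals of 13 and 8 at day 1 and 10 and 24 in the ground state. Others of the 10 best ranked lay in Camk1d (a calmodulin-dependent kinase), Sh3bp2 (a signalling adaptor), Lrrfip1, Tcte3 and Lims1 (a focal adhesion adaptor), and 4 lay between genes. One of these 4, chr10:41810015-41810512, lay 0.06 kb from Sesn1, a stress-induced p53 target, and overlapped the promoter windows of both Sesn1 and Cep57l1, the second of which is printed above. Its maximum signal was 13 and 6 at day 1 and 10 and 26 in the ground state. The interval over the promoter of Tacc3, a spindle protein, had the same MEF2C pattern and ranked 704 of 4439. The best ranked promoter interval, over Gm5165, ranked 33 and had MEF2C in 6 libraries and H3K9me3 in none, with signals of 29 and 11 at day 1 and 14 and 92 in the ground state. The interval over Gm45966 ranked 120 and had MEF2C in 2 libraries and H3K9me3 in all 4.

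Whether knockdown of Junb or H1f0 moved MEF2C on these intervals was asked with the share held in each library. MEF2C lay on 7.68%, 19.9% and 16.1% of shared intervals under siJunb, on 10.2%, 14.3% and 10.6% under siH1f0, and on 5.47% and 12.4% under siControl. Of all peaks of the shortest H1.0 list, the same libraries held 4.03, 12.4 and 9.64 percent under siJunb, 7.37, 10.7 and 5.81 percent under siH1f0, and 3.92 and 8.89 percent under siControl. On the shared intervals the 3 groups overlapped. The share averaged 14.6% ± 6.26 under siJunb (SD, n = 3) and 8.92% ± 4.87 under siControl (SD, n = 2), a difference of 5.64 points (exact permutation p = 0.4, adjusted p = 0.8 over 4 comparisons, two-sided). Under siH1f0 it averaged 11.7% ± 2.24 (SD, n = 3), which was 2.76 points above siControl (exact permutation p = 0.6, adjusted p = 0.8). Between siJunb and siH1f0 the difference was 2.88 points (exact permutation p = 0.6, adjusted p = 0.8). The smallest p possible was 0.2 for 3 against 2 libraries and 0.1 for 3 against 3, so no such comparison could reach 0.05. The difference between siH1f0 and siControl was -0.683 points without siControl replicate 1, and that between siJunb and siH1f0 was -2.95 points within lists beginning with M.

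**Figure D5:**
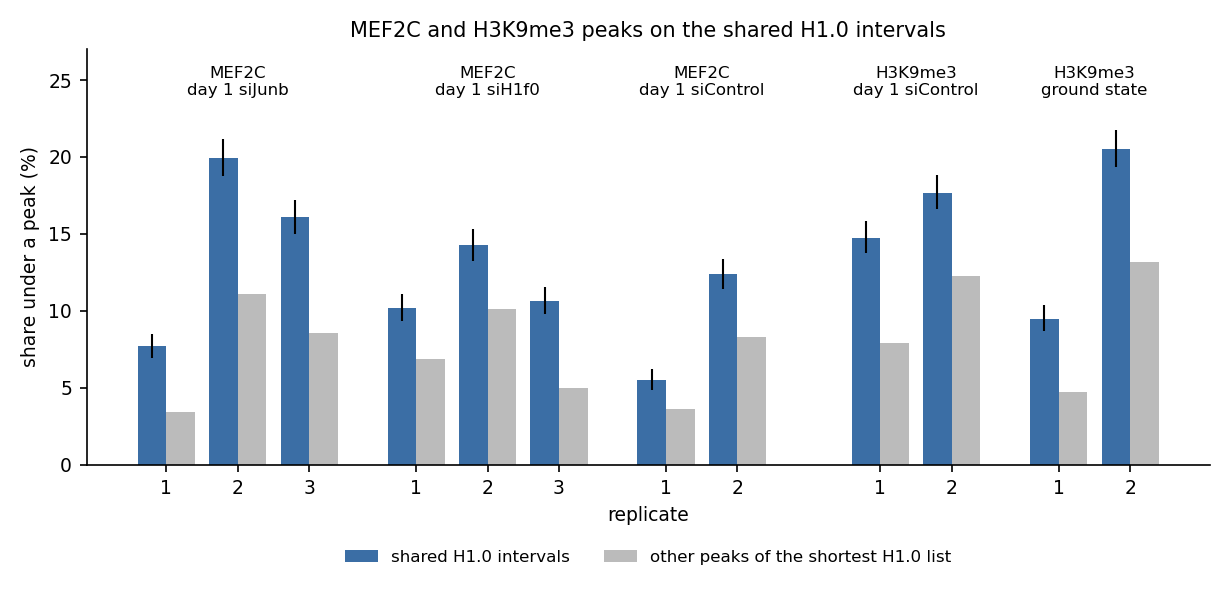
Share of the 4439 shared H1.0 intervals and of the 28517 other peaks of the shortest H1.0 list that lie under a peak of each MEF2C and H3K9me3 library; error bars are 95% Wilson intervals for the shared intervals and cover counting error only. In all 12 libraries the share is higher on the shared intervals, and the siJunb (7.68 to 19.9%), siH1f0 (10.2 to 14.3%) and siControl (5.47 to 12.4%) libraries overlap.

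Because the lists differed in length, the share on shared intervals was also divided by that on the other peaks of the shortest list in the same library, a measure chosen after the values were seen. The ratio was 2.25, 1.80 and 1.88 under siJunb, 1.48, 1.41 and 2.12 under siH1f0, and 1.51 and 1.49 under siControl. Each siJunb library lay above both siControl libraries, whereas siH1f0 libraries lay on both sides of them. The ratio was higher by 0.475 under siJunb than under siControl (exact permutation p = 0.2, adjusted p = 0.6, two-sided), which is the smallest p that 3 against 2 libraries allow. Between siJunb and siH1f0 it differed by 0.306 (exact permutation p = 0.3, adjusted p = 0.6), and the highest ratio under siJunb (2.25), siH1f0 (2.12) and siControl (1.51) each came from the list beginning with M. For H3K9me3 the ratio was 1.86 and 1.44 at day 1 and 2.00 and 1.56 in the ground state, with overlapping groups.

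Single intervals on which the knockdown and control libraries separated fully were few. MEF2C in all 3 siJunb and no siControl libraries was found on 21 shared intervals (0.473%), against 0.149 percent of all peaks of the shortest H1.0 list, and MEF2C in both siControl and no siJunb libraries was also found on 21 (0.473%), against 0.365 percent. These 2 patterns require 3 and 2 libraries to hold the interval, so their counts are not symmetric. The best ranked of the first kind were those in Slc8a3 and E330021D16Rik described above, followed by intervals near Gm41940 and Gm18734, and others lay in Dennd4a, Lypd6 and Dennd2c. The best ranked of the second kind lay in Zfp960 (chr17:17064053-17064595), Megf11 and near Mup17, and others lay in Rassf5, Plekha5, Asap1 and Itga1, which encodes a collagen-binding integrin chain. In Zfp960, Megf11 and Asap1 MEF2C was also present in all 3 siH1f0 libraries.

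For siH1f0, MEF2C in all 3 knockdown and no siControl libraries was found on 10 intervals (0.225%), against 0.176 percent, and MEF2C in both siControl and no siH1f0 libraries on 4 (0.0901%), against 0.0851 percent. The 10 included intervals in Baz2b, Dennd4a, Ttll11, Memo1 and Map2k5, and the 4 lay near Mup17, Slamf8 and Ryr3 and in Psen2. The interval in Dennd4a (chr9:64807519-64807970) was held in all 6 knockdown libraries and in neither siControl library. Between the knockdowns, 14 intervals (0.315%, against 0.0851 percent) had MEF2C in all siJunb and no siH1f0 libraries, and 21 (0.473%, against 0.273 percent) had the opposite pattern. These counts carry no test, and the siH1f0 and siControl patterns stood near the background share in both directions.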

How the data were processed

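CUT&RUN peak lists of 16 of the 24 labelled samples were used. The submitters' processing notes name Bowtie2, SEACR and mm10, without version numbers. The deposited lists hold, for each peak of 1 sample, its summed and its maximum signal as whole-number coverage, and neither a scaling to depth nor the use of IgG for thresholds is stated in the labels. Aligned read numbers are unknown. The authors' signal values served only to rank and filter peaks within a list.

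Intervals were intersected in Python 3.11.15 with numpy 2.4.6 and pandas 2.3.3, using code tested on 50 simulated sets. A library counted as holding an interval when the overlap reached 1 bp. RefSeq annotation of GRCm38.p6 supplied genes, without strand or exons, so exons, introns and UTRs were not told apart, and also supplied the promoter windows, none of them on chromosome 18. Coordinates are 1-based on mm10. Groups were compared over libraries by exact permutation (scipy 1.17.1), two-sided, with Benjamini-Hochberg adjustment over 4 comparisons and a threshold of 0.05. The sample titles call the replicates biological (BiolRep). Which steps were repeated between them is not stated, so how much of the spread is technical is unknown. Intervals named are the best ranked by mean H1.0 percentile, the longest, and the best ranked of each MEF2C or H3K9me3 pattern; genes named are those of the lists and those with most intervals. The dense windows, the promoter intervals and the genes named for them were picked after their values were seen. The shared intervals and all gene lists were chosen with earlier results of these data known.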

Additional observations from a re-analysis of the deposited data

Results flagged for a closer look

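Outside the chromosomes used for the report, the 4 H1.0 lists also shared 81 intervals of 300 bp or longer. Of these, 79 lay on unplaced or unlocalised scaffolds, 56 of them on 4 scaffolds assigned to chromosome 1, and 2 lay on chromosome Y. They stood out because they carry the same signal in sequence that no comparison used, and with them the shared intervals would number 4520. No cause was tested.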

How the results depend on the processing

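The number of shared intervals depended on the shortest lists: leaving out 1 H1.0 list gave 5240 to 44728 intervals, with 44728 without day 1 replicate 2 and 17920 without ground-state replicate 1, and keeping H1.0 peaks above the median maximum signal of their list gave 1166. Leaving out 1 H1.0 list gave 34.2 to 36.9% within 5 kb of a gene end, leaving out 1 list or library gave MEF2C in all remaining libraries on 1.25 to 2.55% of intervals, and H3K9me3 on 2.99 to 11.6%. Above that median, 46.1% lay within 5 kb of a gene end and 15.7% had H3K9me3 in all libraries. Gene ends lay within 1 kb of 15.0%, within 10 kb of 52.5%, and for protein-coding genes only within 5 kb of 21.9%. H3K9me3 in all libraries was at 7.93% for intervals of 500 bp or longer and at 6.04% when 50% of the interval had to be covered. With MEF2C and H3K9me3 peaks above the median summed signal, MEF2C lay in all libraries on 1.42% and H3K9me3 on 4.93%. Outside the dense windows, an alternative added after seeing the data, the values were 34.0% (gene ends), 2.47% (MEF2C) and 5.94% (H3K9me3).

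Leaving out 1 library gave differences of 2.19 to 9.09 points for siJunb minus siControl, -0.683 to 6.21 for siH1f0 minus siControl, 0.188 to 6.32 for siJunb minus siH1f0, and -4.31 to 6.72 for H3K9me3, day 1 minus ground state, which was -0.270 without day 1 replicate 2 and -4.31 without ground-state replicate 1. Within lists without a leading M, siH1f0 minus siControl was -0.158 and H3K9me3 was -2.84; within lists with one, siJunb minus siH1f0 was -2.95. The ratio for siH1f0 minus siControl was -0.0576 (without siH1f0 replicate 3) to 0.299 without 1 library, -0.0576 with the replicate block and -0.0464 in lists without a leading M, against 0.169, and the H3K9me3 ratio was 0.0868 without day 1 replicate 2 and -0.344 to 0.0980 without 1 library, against -0.123. MEF2C on shared intervals minus other peaks was 4.39 to 5.39 points without 1 library, 3.91 and 5.57 points within lists with and without a leading M, 7.54 points outside the dense windows and 5.71 points for intervals and peaks of 500 to under 800 bp. The cause of these changes was not tested.

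Replicate numbers gave no steady pairing of the samples. Deviations of same-numbered libraries correlated at -0.107, -0.0951 and -0.0214 (siJunb and siH1f0), and at 0.141 for H3K9me3 with 2 pairs. They correlated at -0.0311 and -0.0535 (siJunb and siControl) and at -0.0894 and 0.167 (siH1f0 and siControl). MEF2C lists beginning with M gave values of either sign. The value was 0.241 for siH1f0 replicate 3 and siControl replicate 1. It was -0.0311 for siJunb replicate 1 and siControl replicate 1, and -0.0208 for siJunb replicate 1 and siH1f0 replicate 3. In a group of 2 libraries the deviations mirror each other, so these values are not independent. With the replicate block the differences were 4.89 points for siJunb minus siControl, 3.29 for siH1f0 minus siControl and 2.88 for siJunb minus siH1f0 (exact p = 0.5 each, by changing signs within pairs) and 1.21 points for H3K9me3 (exact p = 1). With so few pairs this test could not reach 0.05, so it could change no call. Depth is unknown, so list length limits what can be detected.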
